A study of Mus musculus with 9 samples.

Results

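Myelin and oligodendrocyte transcripts were followed through 9 genes: Mbp, Mobp, Mal, Cldn11, Mag, Mog, Cnp, Ugt8a and Car2. All probes annotated to these symbols were taken, with no filter on missing values. This gave 10 of the 29922 probes on the array, 1 for each gene except Mobp, which had 2. In genes, it is 9 of the 16637 symbols with a probe. None of these symbols needed updating.

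Oligodendrocytes wrap axons in myelin, a stack of membrane rich in lipid and in a small set of proteins. Mbp and Mobp help to compact that membrane, Cldn11 forms the tight junctions between its layers, and Mal is a proteolipid of lipid-rich membrane domains. Mag lies on the surface that faces the axon, Mog on the outermost surface, and Cnp in the cytoplasmic channels that stay open within the sheath. Ugt8a makes galactosylceramide, the main glycolipid of myelin, and Car2 is a cytosolic carbonic anhydrase that interconverts carbon dioxide and bicarbonate and is abundant in oligodendrocytes. In hippocampus, myelinated fibres run mainly in the alveus, the fimbria and the molecular layers.

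The RNA source was 1 hippocampus per mouse from 8 females. Wild-type (WT) and 3xTG animals were taken at ages of 3 and 12 months, with 2 mice per genotype and age. The WT strain is labelled 129SV with C57BL6. The label of the 3xTG strain names, among its alleles, transgenes of mutant APP and tau. As background, a Thy1 cassette that acts in neurons drives the transgenes of this line, so the model places them outside the oligodendrocytes themselves. There were 3 comparisons of 3 two-colour arrays each, in which a test and a reference RNA compete for the same spots: WT 12 over 3 months, 3xTG over WT at 3 months, and 3xTG over WT at 12 months. By the series design, 6 of the arrays are biological and 3 technical repeats, so p-values measure in part a technical spread. WT mice of 3 months served the first and second comparisons, and WT mice of 12 months the first and the third.

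Values are deposited log2 ratios, test over reference, less the median of all values listed on that array, so that 0 is the array median. Arrays listed between 45.7% and 54.1% of the probes. No listed value lay between -0.5 and 0.5 before centring, so a missing value may be a small ratio or a spot left out for another reason. Array medians before centring ran from -1.71 to 2.34. The direction of a centred value therefore depends on the centring, and 2 other scales are given where they turn it: the deposited ratio, and the ratio relative to the median of 189 probes of abundant transcripts (ribosomal, respiratory, proteasome and glycolytic genes). The percentile of a probe among the values listed on its array does not depend on the centring. In whole tissue, fewer cells of a type and less RNA per cell cannot be told apart. Ratios carry no level, so the labelled tissue could not be checked by the level of its markers.

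Sequences upstream of the members are shown because, as background, Sox10, a factor of myelinating cells, acts on many myelin genes, and its family binds the letters ACAAAG. RefSeq promoters (GRCm38.p6, 250 bases before to 50 after a gene's start) were used for 7 of the 9 genes: Mal, Cldn11, Ugt8a, Mag, Mobp, Cnp and Mog. Promoters on the chromosome of Mbp were left out of the member counts. The counts therefore do not cover Mbp, nor Car2. ACAAAG was searched on both strands, with overlapping matches counted. It lay in the promoters of Mobp, Mag and Cnp, 3 of the 7 genes, and in 4 of their 9 promoters, against 18.7% of all 32851 promoters. The matching promoters of Mag overlap and hold the same match, which is counted in each. The Mobp promoter held 6 matches, all on the reverse strand, and was the only 1 of the 32851 with as many as 6. The sequence of Mobp (chr9:120149492-120149791, + strand) and a promoter of Mag (chr7:30914814-30915113, - strand) follow, with matches in capitals.
Mobp: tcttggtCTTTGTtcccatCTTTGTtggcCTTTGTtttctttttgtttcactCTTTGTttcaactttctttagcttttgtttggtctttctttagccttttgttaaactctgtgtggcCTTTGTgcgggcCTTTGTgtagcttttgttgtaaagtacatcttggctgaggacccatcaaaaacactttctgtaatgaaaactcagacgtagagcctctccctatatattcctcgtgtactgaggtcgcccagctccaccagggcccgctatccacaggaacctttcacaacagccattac
Mag: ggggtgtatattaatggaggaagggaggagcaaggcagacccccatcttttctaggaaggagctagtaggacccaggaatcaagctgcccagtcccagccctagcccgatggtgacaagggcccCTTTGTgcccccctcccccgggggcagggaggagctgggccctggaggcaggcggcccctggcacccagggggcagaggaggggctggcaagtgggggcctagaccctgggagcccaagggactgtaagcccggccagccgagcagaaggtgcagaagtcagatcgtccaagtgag
A match is a description of these letters, not a binding site.

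The members were listed somewhat more often than the array as a whole. For WT ageing 20 of 30 possible values were listed, or 66.7%, against 49.8% over all probes. At 3 months 17 of 30 were listed (56.7% against 46.9%), and at 12 months 16 of 30 (53.3% against 49.1%). Car2 was the only member listed on all 9 arrays, and Cnp was listed on 2. Only Mbp, Mag, Ugt8a and Car2 were listed on at least 2 arrays of every comparison, the filter for the test. In limma, with Benjamini-Hochberg adjustment over 3644 probes, 0 of these 4 passed an adjusted p of 0.05 in any comparison, as did 0% of all probes. At an unadjusted p under 0.05 there were 431 probes for WT ageing, 492 for genotype at 3 months and 607 at 12 months. For WT ageing 2.31% of probes were above 0 and 9.52% below 0 at that level, and 0 of the 4 members in either direction.

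**Figure D1:**
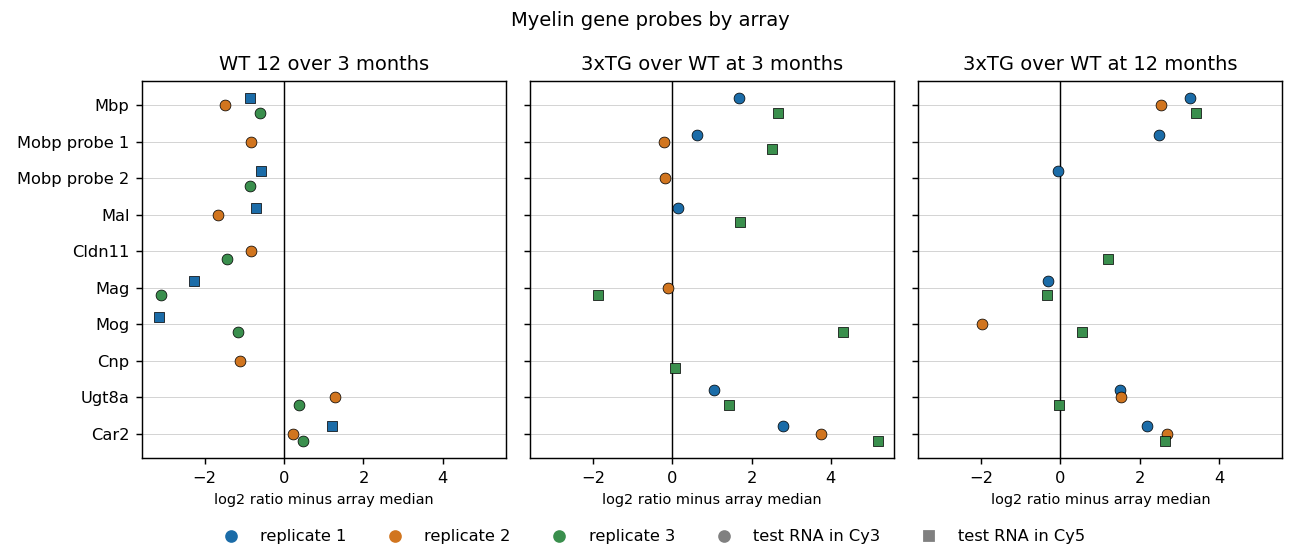
Log2 ratio minus array median (horizontal) of each member probe (rows) in the 3 comparisons; points are single arrays, coloured by replicate and shaped by the dye of the test RNA, and a missing point was not listed. Mobp probe 1 is mMC006455 and probe 2 mMR027950. In WT ageing the 5 values of Ugt8a and Car2 lie above 0 and the 15 values of the other genes below 0, while Car2 lies above 0 on all 9 arrays.

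The first comparison concerned ageing of WT hippocampus from 3 to 12 months. Ugt8a and Car2 and the other members lay on opposite sides of the array median. For Mbp, Mobp, Mal, Cldn11, Mag, Mog and Cnp all 15 listed values were below it, from -3.16 to -0.59, at percentiles 9.49 to 36.3 of their arrays. For Ugt8a and Car2 all 5 were above it, from 0.22 to 1.29, at percentiles 54.7 to 76.7. The sides depend on the scale: as deposited, 12 of the 15 values were above 0, and relative to the abundant transcripts 13 of 15 were below 0. The 5 values of Ugt8a and Car2 were above 0 on all 3 scales. Over all genes, 47.5% to 48.2% lay above the median on these arrays. The values share arrays and mice, so they are not independent.

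Mbp read -0.85 (mouse 25 over 15), -1.48 (24 over 16) and -0.61 (25 over 16), a mean of -0.98 ± 0.45 (SD, n = 3 arrays). All 3 arrays lay below the median, as did 22.2% of the 4083 probes listed on all 3. The fitted log2 ratio, which allows for dye and shared mice, was -1.06 ± 0.78 (SE, limma adjusted p = 0.716), and 0.77 without centring.

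Mag had the lowest values of the tested members, -2.27 (25 over 15) and -3.11 (25 over 16). Both arrays share mouse 25. They put Mag at percentiles 19.2 and 11.1, and Mag was below 0 on both arrays on all 3 scales. The fitted log2 ratio was -2.69 ± 1.14 (SE, limma adjusted p = 0.447), with 2 residual degrees of freedom.

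Mog, the other surface protein, read -3.16 and -1.16 on the same arrays. The gap between these arrays was 2.00, with mouse 25 as the test on both. As deposited they had opposite signs, -1.75 and 0.79.

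Among the proteins of compact myelin, Mal read -0.71 (25 over 15) and -1.67 (24 over 16), and Cldn11 -0.84 (24 over 16) and -1.44 (25 over 16). A Mobp probe (mMR027950) read -0.59 and -0.87, and the other (mMC006455) -0.83 on the array that did not list the first. Cnp was listed on a single array, at -1.12. These values were close to each other in size, and as deposited each of them was positive, from 0.52 to 1.51.

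Car2 read 1.22 (25 over 15), 0.22 (24 over 16) and 0.48 (25 over 16), with a mean of 0.64 ± 0.52 (SD, n = 3). All 3 arrays were above the median, as were 16.4% of probes listed on all 3. The fit gave 0.80 ± 0.77 (SE, limma adjusted p = 0.804). Ugt8a read 1.29 and 0.37, with a fitted log2 ratio of 0.28 ± 1.25 (SE, limma adjusted p = 0.969). Leaving out single arrays moved the Ugt8a fit between 0.18 and 1.03, the latter without mouse 7 over 24. Neither Car2 nor Ugt8a passed the test.

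The second comparison asked how 3xTG hippocampus differs from WT at 3 months. Car2 had the highest ratio of all members listed on each of the 3 arrays. Its values were 2.80 (mouse 23 over 15), 3.76 (22 over 15) and 5.18 (22 over 16), a mean of 3.91 ± 1.20 (SD, n = 3). They lay at percentiles 93.2, 92.9 and 98.9, and all 3 were above 0 on each of the 3 scales. All 3 arrays were above the median, against 30.9% of the 3607 probes listed on all 3.

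The fitted log2 ratio of Car2 was 4.04 ± 0.78 (SE, limma adjusted p = 0.242), the 7th smallest p of 3644. Treating arrays as independent, which disregards the shared mice, gave 4.08 with a limma adjusted p of 0.0391, the only setting in which a member passed. Leaving out single arrays moved the fit between 3.53 and 4.47.

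Mbp was listed on 2 arrays, at 1.68 (23 over 15) and 2.68 (22 over 16), percentiles 84.1 and 90.5. These pairs share no mouse. Its fitted log2 ratio was 2.18 ± 0.81 (SE, limma adjusted p = 0.314, unadjusted p = 0.0283), and 1.87 relative to the abundant transcripts. Of the 4 tested members, Mbp and Car2 were above 0 at an unadjusted p under 0.05, as were 9.17% of all probes, and 0 of 4 were below 0, against 4.34%. Mbp no longer reached that level with the abundant transcripts as zero (limma unadjusted p = 0.0546, adjusted p = 0.329). With the replicate number as a block it did not reach it either (limma unadjusted p = 0.109, adjusted p = 0.382).

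Ugt8a read 1.05 (23 over 15) and 1.44 (22 over 16) on the same pair of arrays, with a fitted log2 ratio of 1.25 ± 0.91 (SE, limma adjusted p = 0.597). Mal read 0.16 and 1.72 there. Mobp probe mMC006455 read 0.64, -0.20 and 2.52, so its 3 arrays did not lie on a single side. Probe mMR027950 was listed on the second of them only, at -0.18, close to the other Mobp probe there.

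Mag stood apart from Mbp. It read -0.10 (22 over 15) and -1.88 (22 over 16), both below the median. On the scale of the abundant transcripts these values were -1.61 and -2.65. Its fitted log2 ratio was -0.99 ± 1.14 (SE, limma adjusted p = 0.750). Mog was listed only on the array of mouse 22 over 16, at 4.31 and percentile 97.3, and Cnp only there too, at 0.06. The Cnp value on that array was 1.03 as deposited and -0.71 relative to the abundant transcripts.

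That array was the only 1 of the 3 at this age with the test RNA in Cy5. Of 6 member probes listed on it and on another array, 5 had their highest value on it (Mbp, Mobp, Mal, Ugt8a and Car2). Over all probes listed in this way the share was 40.2%. On the corresponding Cy5 arrays it was 4 of 6 members against 45.8% in WT ageing and 2 of 5 against 46.1% at 12 months. Dye and mouse pair cannot be told apart for this array.

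The third comparison asked the same at 12 months. Mbp and Car2 were again above the median on all 3 arrays, as were 29.7% of the 3836 probes listed on all 3. Mbp read 3.27 (mouse 4 over 24), 2.53 (4 over 25) and 3.41 (7 over 24), a mean of 3.07 ± 0.47 (SD, n = 3), at percentiles 91.6, 83.8 and 92.2. Mbp was above 0 on every array on all 3 scales. Its fitted log2 ratio was 3.03 ± 0.78 (SE, limma adjusted p = 0.258, unadjusted p = 0.00513). The fit was 1.81 on deposited values and 1.38 with the abundant transcripts as zero.

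Car2 read 2.20, 2.69 and 2.64, a mean of 2.51 ± 0.27 (SD, n = 3), the closest agreement of any member listed on 3 arrays. The fit gave 2.64 ± 0.77 (SE, limma adjusted p = 0.258, unadjusted p = 0.0083). With deposited values the fit was 1.47, and with the abundant transcripts as zero 1.01. Both were above 0 at an unadjusted p under 0.05, as were 14.6% of all probes, and 0 of 4 were below 0, against 2.09%. On the other scales neither reached that level: without centring the unadjusted limma p was 0.0543 for Mbp and 0.135 for Car2, and with the abundant transcripts as zero 0.118 and 0.185. Over all probes 531 were above and 76 below 0 at that level with centring, 97 and 295 without it, and 50 and 550 with the abundant transcripts as zero. The abundant transcripts themselves lay 1.04 to 2.04 above the array medians at this age.

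Ugt8a read 1.51 and 1.54 on the arrays of mouse 4 and -0.04 on that of mouse 7, so mouse 7, whose array was also the only 1 at this age with the test RNA in Cy5, stood apart. Its fitted log2 ratio was 0.89 ± 0.88 (SE, limma adjusted p = 0.647), or 1.73 without the array of mouse 7, but -0.34 on deposited values and -0.75 with the abundant transcripts as zero. Mag read -0.31 (4 over 24) and -0.33 (7 over 24), with a fitted log2 ratio of -0.32 ± 1.14 (SE, limma adjusted p = 0.913). Relative to the abundant transcripts these values were -2.35 and -1.38.

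The other members gave no single direction. Mog read -1.96 (4 over 25) and 0.56 (7 over 24). The opposite signs of Mog depend on the centring. As deposited both of its values were below 0, at -2.834 and -1.149. Relative to the abundant transcripts both were below 0 too, at -3.996 and -0.481. On the array of mouse 4 over 24 the Mobp probes read 2.50 (mMC006455) and -0.07 (mMR027950), a difference within a single hybridisation. The sources used here do not give the probe sequences, so whether these probes read different Mobp transcripts was not tested. Cldn11 was listed once (7 over 24), at 1.21, and Mal and Cnp on none of the 3 arrays. As deposited this Cldn11 value was negative, -0.501, the smallest size listed on that array. Relative to the abundant transcripts it was 0.17.

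**Figure D2:**
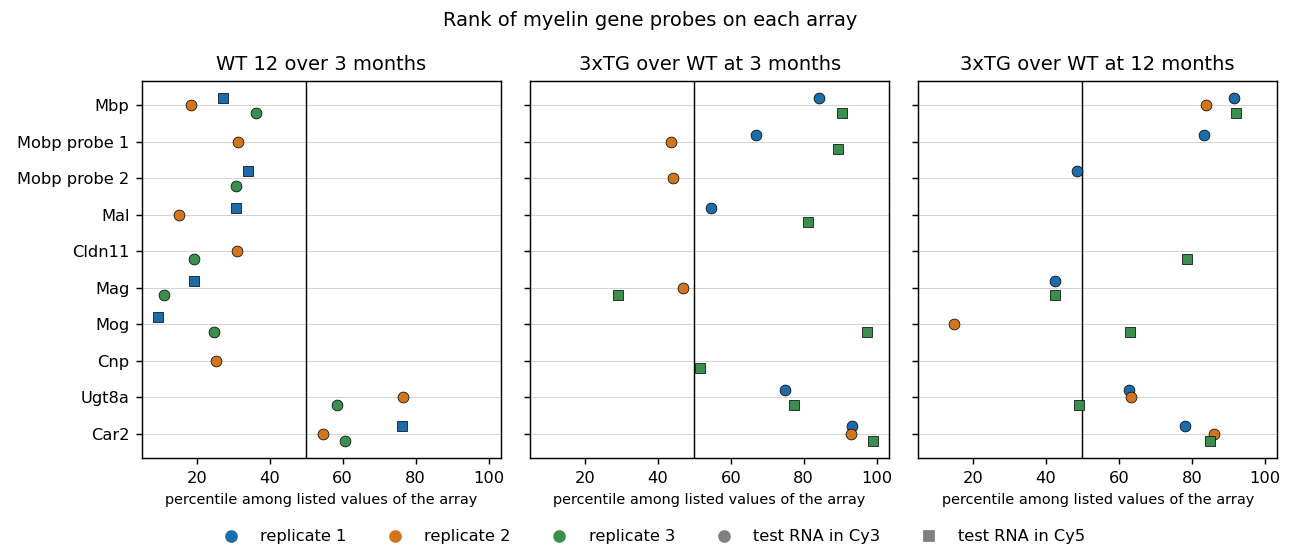
Percentile of each member probe (rows) among all values listed on its array, a scale that centring does not change; points are single arrays, coloured by replicate and shaped by the dye of the test RNA, with the line at 50. Car2 lies at percentile 92.9 or higher on all 3 arrays of genotype at 3 months, and Mbp at 83.8 or higher on its 5 arrays of genotype.

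No difference between ages passed the test for any tested member. Subtracting the 3-month genotype effect from the 12-month effect gave -1.41 ± 1.09 (SE) for Car2, 0.85 ± 1.12 for Mbp, -0.36 ± 1.26 for Ugt8a and 0.67 ± 1.61 for Mag, with limma adjusted p from 0.846 to 0.983. For Mbp and Mag the sign turned without centring, at -1.27 and -0.69. No array set the 3xTG ages against each other. Through WT, the log2 ratio of 3xTG at 12 over 3 months was -0.60 ± 0.98 (SE) for Car2, -0.20 ± 1.02 for Mbp, -0.07 ± 1.48 for Ugt8a and -2.03 ± 1.80 for Mag, with limma adjusted p from 0.995 to 0.998. Leaving out single arrays moved the value of Car2 between -1.05 (without mouse 23 over 15) and -0.17 (without mouse 7 over 24). limma called 0 of 3644 probes in each of these contrasts, with 253 and 205 at an unadjusted p under 0.05. For the first contrast 5.08% were above 0 and 1.87% below 0 at that level, for the other 3.1% and 2.52%, with 0 of the 4 members in each.

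**Figure D3:**
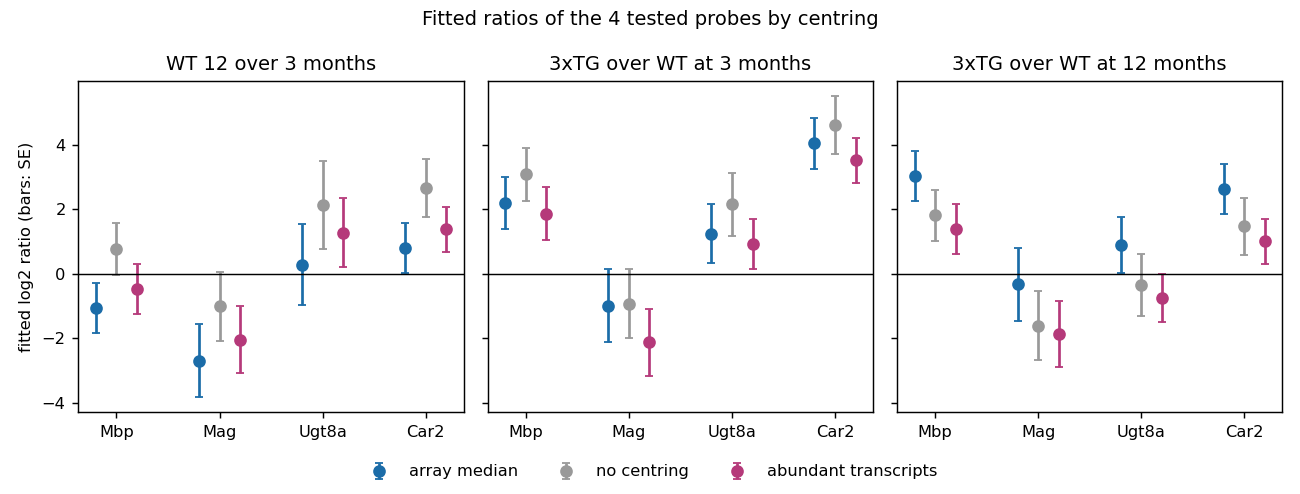
Fitted log2 ratio (vertical, bars: SE) of the 4 tested probes in the 3 comparisons with arrays centred on their median, without centring, and centred on the abundant transcripts. Car2 lies above 0 in every panel and setting and Mag below 0, while Mbp in WT ageing and Ugt8a at 12 months change side.

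The design allows a check on error that needs no model. WT mice 24 and 25 were each set against mouse 16 and against 3xTG mouse 4, on 4 arrays that all had the test RNA in Cy3. The log2 difference between mice 24 and 25 can therefore be read by both routes. For Mbp it was -0.86 through mouse 16 and -0.73 through mouse 4. For Car2 it was -0.26 and 0.49, and for Ugt8a 0.93 and 0.03. Over the 2172 probes listed on these arrays the SD of the disagreement was 3.42, which is 1.71 per array, and the routes correlated at 0.06 across probes, which are not independent replicates. The members' routes disagreed by less than that SD, and so did most probes. Per array, the median size of the disagreement was 0.92.

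Mice 15 and 16 can also be set against each other, but only across a dye swap. The difference 15 minus 16 for Car2 was 1.42 through 3xTG mouse 22 and -0.74 through WT mouse 25. For Mag it was -1.78 and -0.83.

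As a group, the 9 genes had an array median of -0.83 ± 0.05 (SD, n = 3 arrays) in WT ageing, 1.02 ± 1.11 for genotype at 3 months and 1.48 ± 0.58 at 12 months, where a gene's probes were averaged first. Over all genes the same value was -0.09, 0.03 and 0.18. The arrays listed 6, 7 and 7 of these genes in WT ageing, 5, 3 and 8 at 3 months, and 5, 4 and 6 at 12 months. The medians therefore cover different genes from array to array, and the arrays share mice, which the SDs do not allow for. At 3 months the array of mouse 22 over 15 had a median of -0.10 from 3 genes. The abundant transcripts lay on the same sides, at -0.64 ± 0.25, 0.69 ± 0.81 and 1.71 ± 0.54 (SD, n = 3), and their part in the members' values was not tested. Relative to them the members' median was -0.22, 0.31 and -0.23.

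**Figure D4:**
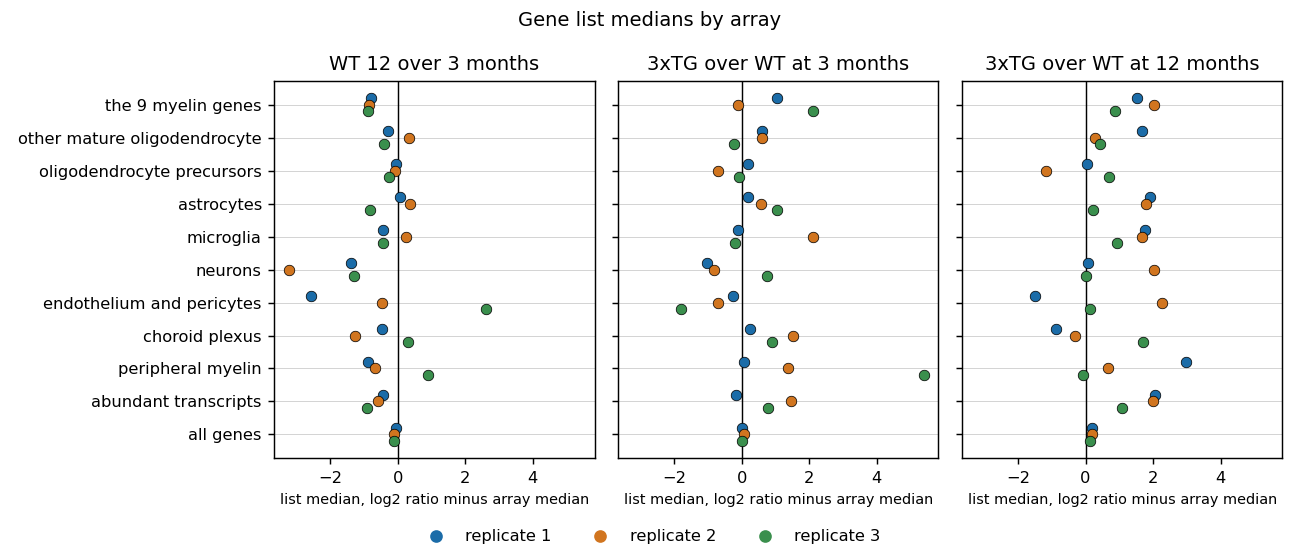
Median log2 ratio minus array median (horizontal) of each gene list (rows) on single arrays (points, coloured by replicate) in the 3 comparisons. Of the 9 myelin genes, those listed on an array have a median near -0.83 on all 3 arrays of WT ageing. For genotype at 12 months it is between 0.89 and 2.04, where the abundant transcripts lie between 1.08 and 2.05.

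Other genes of mature oligodendrocytes were closer to the array median. Of 52 listed, 47 had a probe, and Myrf, a factor that drives myelin genes, had none. Their median was -0.12 ± 0.39 (SD, n = 3) in WT ageing, 0.33 ± 0.47 for genotype at 3 months and 0.80 ± 0.77 at 12 months. In limma 6 of them were tested, and 0 passed in either direction in any comparison. At an unadjusted p under 0.05, 1 was above 0 at 3 months (Tmem88b), as were 9.17% of all probes. The 1 below 0 at 12 months was Olig2 (-2.34 ± 0.99 SE, limma adjusted p = 0.298), against 2.09% of all probes. In the opposite directions there were 0, against 4.34% at 3 months and 14.6% at 12 months.

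Among those with a single sign on all 3 arrays at 3 months, Tmem88b read 6.90, 4.05 and 1.12. Omg, a glycoprotein of oligodendrocytes that limits axon growth, read 1.82, 3.60 and 2.83. Enpp2, which makes lysophosphatidic acid and is also high in choroid plexus, read 0.81, 3.06 and 2.86. Plekhb1 read 1.28, 2.15 and 2.69, and Cntn2, a contactin of the juxtaparanode, read -0.18, -0.17 and -3.23 at 1 of its probes. The first 4 of these, with Cryab (named after its values were seen), made 5 probes above the median on all 3 arrays, of 9 listed on all 3, against 30.9% of all probes. Of the same 9, Cntn2 was the only 1 below on all 3, against 20.8% of all probes.

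In WT ageing Cntn2 read 1.43, 2.71 and 0.55 at another probe, Ndrg1 0.10, 0.29 and 2.04, and Prr18 -2.50, -5.19 and -5.68. Of 11 probes listed on all 3 arrays, these were the 2 above and the 1 below on all 3, against 16.4% and 22.2% of all probes. At 12 months Prr18 read 2.41, 2.37 and 2.80, and another Cntn2 probe -3.73, -2.87 and -0.65. Each was the only 1 of 7 on its side on all 3 arrays at that age, where 29.7% of all probes were above and 20.3% below on all 3. These comparisons share the 12-month WT mice, as test and as reference, so opposite signs of Prr18 are not separate results.

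Precursors and immature oligodendrocytes, with 18 of 20 genes on the array, had medians of -0.13 ± 0.11, -0.19 ± 0.47 and -0.14 ± 0.95 (SD, n = 3 arrays each). In limma 0 of 6 tested probes passed in any comparison. In WT ageing 9 probes of the list were found on all 3 arrays. Of these, 3 probes of Sox5, which holds back differentiation, were below the median on all 3, against 22.2% of all probes. Their means were -4.03, -2.16 and -0.87. By genes it was 1 of 6, against 824 of 3539 over all genes. In the fit Sox5 was at -1.96 (mMC005104, limma adjusted p = 0.486) and -0.57 (mMC012911, limma adjusted p = 0.926). Sox6 was the only 1 of the 9 above on all 3, against 16.4% of all probes, with a mean of 0.74. At 3 months Tcf7l2, a factor of newly formed oligodendrocytes, had a mean of 0.38 and Itpr2 of -0.87. The directions of these means relative to the abundant transcripts were the same except for Tcf7l2, at -0.34. As deposited, the Sox5 probe with a mean of -0.87 was at 1.04.

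Markers of other cell types also lay off the array median, and their part in the members' values was not tested. Neuronal genes had medians of -1.96 ± 1.09, -0.36 ± 0.96 and 0.71 ± 1.14 (SD, n = 3) in the 3 comparisons. Astrocyte genes were at -0.13 ± 0.62, 0.61 ± 0.43 and 1.31 ± 0.95, and microglial genes at -0.20 ± 0.39, 0.60 ± 1.32 and 1.45 ± 0.45. Endothelial, choroid plexus and peripheral myelin lists had medians between -0.92 and 2.29, with SDs from 0.64 to 2.77. In the list of peripheral myelin 5 of 8 genes had a probe.

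The probes whose ratios most resembled a member's were named by Pearson's r over at least 7 shared arrays. Arrays share mice and centring, so these are descriptions. For Mbp they were Enc1 (r = 0.99, 7 arrays), Zbtb18 (0.99) and Chmp7 (0.99), where the median over 1002 probes was 0.48. For Car2 they were Slc35a5 (0.98, 8 arrays), Zbtb33 (0.96) and Ankra2 (0.96), against a median of 0.30 over 2258 probes. For Ugt8a they were Ubqln1 (0.86, 7 arrays), Bspry (0.68) and Lrr1 (0.66), against 0.09 over 265 probes. Of the members, only Mbp, Ugt8a and Car2 were listed on at least 7 arrays and could appear among these probes, and none did. The other members could not appear.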

How the data were processed

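Per the labels' protocols, RNA of single hippocampi was linearly amplified before dye labelling. The deposited values are log2 ratios; no source used here gives their scanner, background correction or normalization. Direction was read from the labels as test over reference: 3 arrays carried the test RNA in Cy5 and 6 in Cy3. From each array the median over its listed probes was subtracted. A single symbol was given for 21020 probes, and symbols were updated through RefSeq (GRCm38.p6).

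limma 3.58.1 (R 4.3.3) was run by generalised least squares on all 9 arrays, with a term for each comparison, 1 dye term and covariance from shared mice (variance ratio 1.02, from 142 complete probes). That ratio was not well determined. It was 0.143 without replicate 3 of genotype at 3 months and 10.0, the upper end of its search, without replicate 2 of WT ageing. Probes listed on at least 2 arrays of each comparison entered: 3696, of which 3644 could be fitted. The fit was tested on simulated data. The number of arrays limits the precision; signal over background is unknown.

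Members, gene lists and tests were chosen with earlier results of these data known. From the lists of oligodendrocyte genes, up to 4 probes in each direction were named by size among those with a single sign on all 3 arrays; for likeness, the 3 probes of highest r per member listed on at least 7 arrays. An allele of the 3xTG strain is not reported here. Alternatives covered centring, covariance, dye, slide run, replicate number, missing values and single arrays. The slide run was inferred by splitting the slide numbers.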

Additional observations from a re-analysis of the deposited data

How the results depend on the processing

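Under the alternatives run, limma called 0 probes in all 3 comparisons and both derived contrasts, except with arrays treated as independent, which gave 66 calls for WT ageing and 56 for genotype at 3 months. Car2 kept its sign in every comparison and setting, though read as Cy5 over Cy3 its fit was only 1.04 at 3 months and 0.10 at 12 months. The members' median moved to 1.07 for WT ageing and 0.33 for genotype at 12 months without centring, to -0.22 and -0.23 relative to the abundant transcripts, and to 0.31 and -0.89 with ratios read as Cy5 over Cy3. Leaving out single arrays took it from -0.85 to -0.81 in WT ageing, from 0.48 to 1.58 at 3 months and from 1.20 to 1.77 at 12 months. Fitted values turned their sign as follows. Without centring, Mbp in WT ageing was at 0.77 and Ugt8a at 12 months at -0.34, and the age difference of genotype effects was -0.69 for Mag and -1.27 for Mbp. Relative to the abundant transcripts, Ugt8a at 12 months was at -0.75 and the age difference of Mbp at -0.49. Read as Cy5 over Cy3, Mag, Mbp and Ugt8a in WT ageing were at 0.42, 0.38 and -0.15, Ugt8a at 12 months at -0.87, the age difference of Mbp at -0.20, and 3xTG at 12 over 3 months at 1.30 for Mag and 0.18 for Mbp. For that last contrast, treating arrays as independent gave 0.086 for Mbp and 0.11 for Ugt8a, and dropping the dye term gave 0.51 for Ugt8a. Without replicate 1 of WT ageing Mbp was at 0.11 in it, with a range over single arrays left out of -0.27 to 0.11. Without replicate 3 of genotype at 12 months Ugt8a was at 1.51 in it, with a range of -0.044 to 1.51, and its age difference was 0.48, with a range of -0.49 to 0.48. The cause of these changes was not tested. The replicate numbers of the labels did not pair the arrays: deviations of arrays with the same number correlated at -0.08 to 0.24 over 142 probes, and 9 of 18 best matches fell on the same number. With the replicate block limma called 0 probes, and the ratio of 3xTG at 12 over 3 months was 0.18 for Mbp and 0.19 for Ugt8a. Mag could not be fitted there, and a member listed on too few arrays once an array was left out has no value for that setting. Missing values limit what can be said of Mobp, Mal, Cldn11, Mog and Cnp, which the filter kept from the test. Without the filter Mobp (mMC006455), Mal and Mog could be fitted in some or all contrasts, with 1 residual degree of freedom, and none passed; the smallest unadjusted p, 0.0495, was that of Mog for 3xTG at 12 over 3 months through WT (-7.27 ± 2.80 SE, limma adjusted p = 0.974). Cldn11 and Cnp could not be fitted.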

Other observations

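Pmp22, best known as a protein of peripheral myelin, was chosen after its values were seen. Its probe was near the array median in WT ageing, at -0.06 and 0.17 on the arrays that listed it. For genotype it read 2.19, 2.46 and 5.40 at 3 months and 5.07, 2.64 and 4.36 at 12 months. At each age all 3 arrays were above the median, as were 30.9% of probes listed on all 3 at 3 months and 29.7% at 12 months. All 6 values were above 0 on the deposited scale and relative to the abundant transcripts as well, where they ran from 0.60 to 4.63. At 3 months the fit gave 3.66 ± 1.08 (SE, limma adjusted p = 0.260). At 12 months it gave 3.94 ± 1.08 (limma adjusted p = 0.258), and it passed at neither age. Of the 5 genes of the peripheral myelin list with a probe, Pmp22 among them, 4 had a mean above 0 at 3 months and 3 at 12 months. Over all genes it was 7120 of 14476 and 8170 of 14765. The median of the 5 means was 0.22 and 1.51.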
